A study of Mus musculus with 2 samples.

Results

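The sarcomeric myosin light chains were represented by 5 genes, Myl1, Myl2, Myl3, Myl4 and Mylpf, of 18193 genes with a probe set of their own. They were taken as every probe set whose only gene symbol in the platform annotation was 1 of these 5, which gave 8 of 45101 probe sets, and no probe set with several symbols held any of them. Each probe set is made of short oligonucleotide probes to 1 stretch of a transcript. RNA was taken from C2C12, a line of mouse myoblasts that fuse into multinucleated myotubes in low serum, after 5 days in medium with 2% horse serum. The array of shLrrfip1a cells, which carried a hairpin against Lrrfip1, was set against the array of control cells, which carried the hairpin labelled shLCUI. Both groups were the same line under the same culture protocol, and whether the hairpin cells were 1 clone or a pool is not given in the sources used here. With 1 array for each group, no difference could be set against the spread between replicates, and no test was possible.

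Myosin of the muscle thick filament consists of heavy chains whose lever arm is wrapped by an essential and a regulatory light chain. The light chains stiffen the lever arm, and phosphorylation of the regulatory chain by a myosin light chain kinase modulates force. Different genes supply them: Myl1 (essential) and Mylpf (regulatory) in fast skeletal fibres, Myl3 (essential) and Myl2 (regulatory) in slow fibres and the ventricle of the heart, and Myl4 (essential) in embryonic muscle and the atrium. In skeletal muscle Myl4 is a form of early development, and adult fibres use the fast or slow forms.

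All values are deposited intensities on a linear scale or differences of log2(intensity + 16), shLrrfip1a minus control. The median of all probe sets was 53.5 on the shLrrfip1a array and 51.4 on the control array. A gene was represented by its brightest probe set and counted when its mean level over both arrays exceeded an intensity of 52.5, the median over the whole array, which held for 11439 genes. Lrrfip1 read 375 against 531, 292 against 469 and 108 against 160 on its 3 probe sets, 62.2% to 70.6% of the control values. Of 6 myotube markers, 5 lay above the filter on these arrays, with a median difference of 0.31, or 0.22 with the mean over probe sets. Neb (nebulin) differed by 0.44, the creatine kinase Ckm by 0.38, Ttn (titin) by 0.31, Acta1 by -0.10 and Des (desmin) by -0.23. A dimmer Ckm probe set that also passed the filter differed by 0.06. Acta1 (skeletal actin) read 5220 in shLrrfip1a and 5586 in control, and Actn2 (sarcomeric alpha-actinin) was dim at 41.9 in shLrrfip1a and 28.8 in control.

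Myl4, the embryonic essential chain, was the light chain gene that differed most. Its bright probe set read 1482 on the shLrrfip1a array and 2406 on the control array. The shLrrfip1a value was 61.6% of the control value, a log2 difference of -0.69. Myl4 thus stayed under 2-fold, the size used for counting, and was past 1.5-fold. Among the 11439 genes, 207 or 1.81% had a lower difference, and among genes with a mean level above the 75th percentile of all probe sets the share was 1.69%. The other Myl4 probe set was below the filter on both arrays, at 39.0 in shLrrfip1a and 42.8 in control (log2 difference -0.10), so the Myl4 difference rests on 1 probe set.

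The adult fast pair was close to level. Myl1, the fast essential chain, read 3179 in shLrrfip1a and 3223 in control, a log2 difference of -0.02. Its probe set is of the kind designed to read several transcripts of 1 gene, so the long and short Myl1 forms, which come from alternative promoters, are not separated. Mylpf, the fast regulatory chain, read 3926 in shLrrfip1a and 4219.9 in control (log2 difference -0.10). Of all genes above the filter, 92.8% had an absolute difference at least as large as that of Myl1, and 64.5% one at least as large as that of Mylpf. The intensities of different probe sets are not set against each other here, since probes differ in how brightly they read the same amount of RNA.

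The slow and ventricular chains were dim. Myl3, the slow essential chain, read 95.2 in shLrrfip1a and 89.6 in control on its brightest probe set (log2 difference 0.07). Its other 2 probe sets lay below the filter and pointed in opposite directions, at 29.7 against 34.5 (-0.14) and 24.0 against 21.5 (0.09). Myl2, the slow regulatory chain, had 1 probe set, which read 52.0 in shLrrfip1a and 37.6 in control (log2 difference 0.34). Myl2 did not pass the level filter, and its difference depended on the pseudocount, at 0.46 with 1 and 0.19 with 64. The deposited table holds no detection calls, so whether the dim probe sets measured these transcripts or background cannot be told apart.

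**Figure D1:**
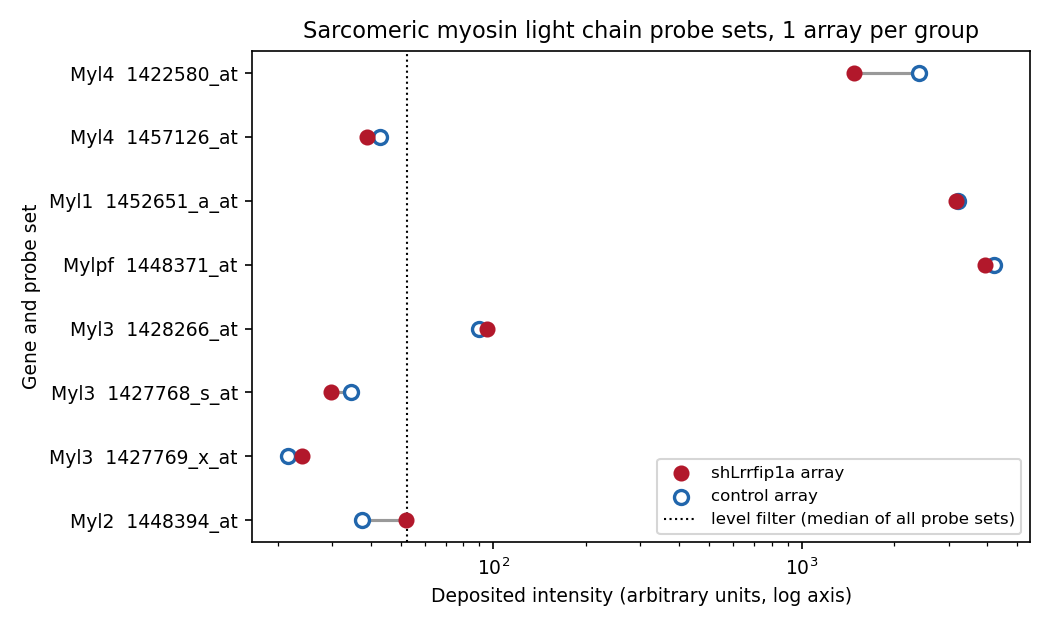
Deposited intensity (log axis) of the 8 light chain probe sets on the shLrrfip1a array (filled points) and the control array (open points), with the level filter dotted. The bright Myl4 probe set is lower in shLrrfip1a (1482 against 2406), the Myl1 and Mylpf points nearly coincide, and the other 5 probe sets lie near or below the filter.

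By count, 4 of the 5 light chain genes passed the filter, all but Myl2. None of the 4 was at least 2-fold higher and none at least 2-fold lower, where 0.664% and 0.691% of all genes above the filter were. At 1.5-fold, 1 was lower (Myl4) and none higher, against 2.47% and 2.34% of all genes. Of the 4, 3 had a negative difference, against 49.3% of all genes, but 1 of 4 with spike-in scaling. The median over the 4 was -0.06, and that of all genes above the filter was 0.00. With so few members these shares describe the genes and are not set against chance.

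**Figure D2:**
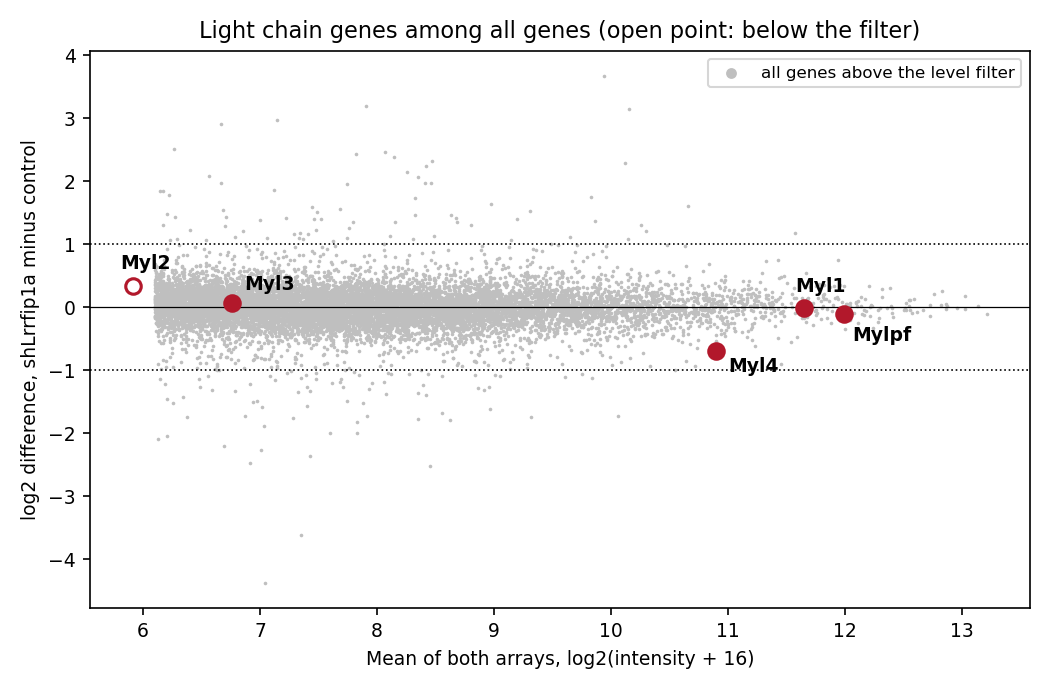
Log2 difference, shLrrfip1a minus control, against the mean log2(intensity + 16) of both arrays for all 11439 genes above the filter (grey) and the 5 light chain genes (red, Myl2 open because it is below the filter); dotted lines mark 2-fold. Myl4 lies at -0.69, in the lower tail of the grey points, of which 1.81% lie lower. Myl1 and Mylpf lie in the dense part at -0.02 and -0.10.

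The sign of the fast pair depended on how the arrays were scaled, and that of Myl4 did not under the settings tried. Over median centring, quantile normalization, removal of a lowess trend, scaling to the spiked-in control probe sets and pseudocounts of 1 and 64, Myl4 differed by -0.74 to -0.53. Myl1 ran from -0.08 to 0.14 and Mylpf from -0.15 to 0.06, with both positive under spike-in scaling and negative under the others. Myl3 stayed between 0.03 and 0.23. Spike-in scaling moved every gene up by 0.16, since 38 of 42 of those control probe sets were lower in shLrrfip1a. Under it Myl4, at -0.53, was no longer past 1.5-fold. The controls were of 2 kinds, with a median of -0.20 over 24 B. subtilis probe sets and -0.06 over 18 E. coli and P1 phage probe sets. Scaled to the B. subtilis controls alone, an alternative added after the data were seen, Myl4 was at -0.50, Mylpf at 0.09 and Myl1 at 0.18. With scaling to those of E. coli and P1, likewise added, Myl4 stayed past 1.5-fold at -0.63, Mylpf was at -0.04 and Myl1 at 0.04.

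**Figure D3:**
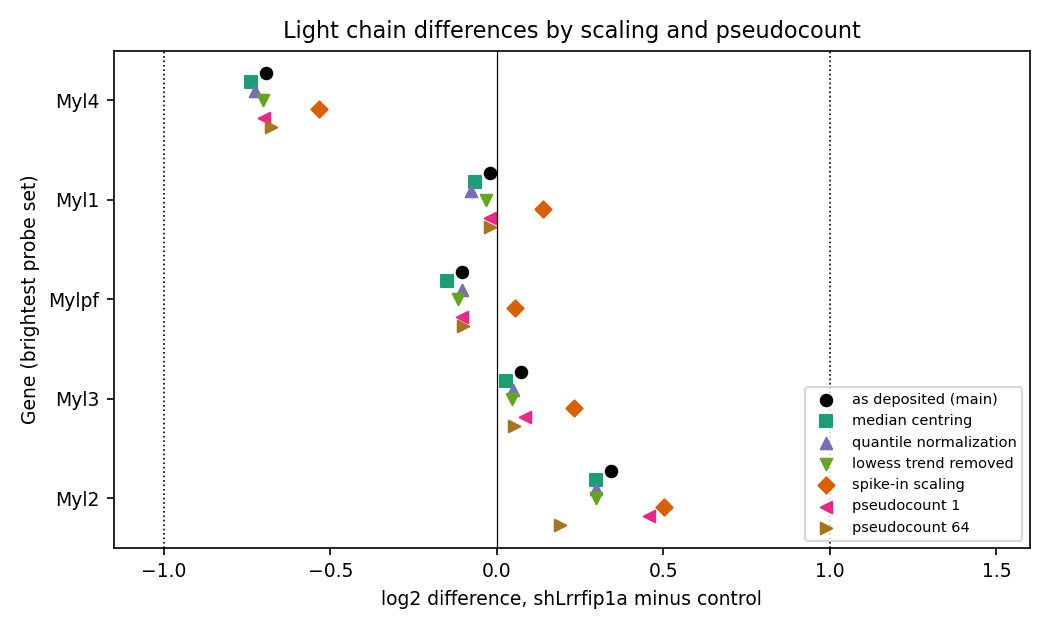
Log2 difference, shLrrfip1a minus control, of each light chain gene under 7 settings (symbols), with 2-fold dotted. Myl4 is negative under each of them, between -0.74 and -0.53, and Myl1 and Mylpf change sign under spike-in scaling.

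A difference between 2 genes on the same arrays cancels any constant scaling. The Myl4 difference minus the Myl1 difference was -0.67 on the log2 scale (-0.68 to -0.65 over the same settings) and minus the Mylpf difference it was -0.59 (-0.62 to -0.57). Relative to either fast chain, Myl4 was therefore lower in shLrrfip1a under each of these settings. Mylpf minus Myl1 was -0.08 (-0.09 to -0.02). The pairs of genes compared here and below were chosen after their values were seen.

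The start regions of Myl4, Myl1 and Mylpf are printed because these are the genes with bright probe sets, Myl4 lower and the fast pair level. Each window comes from RefSeq on GRCm38.p6 and holds the bases before and just after a start site of the gene. Which start site was used in these cells was not analysed here. Capitals mark the E-box CAGCTG, a sequence that MyoD-family factors can bind, and TATAAA on either strand.
Myl4: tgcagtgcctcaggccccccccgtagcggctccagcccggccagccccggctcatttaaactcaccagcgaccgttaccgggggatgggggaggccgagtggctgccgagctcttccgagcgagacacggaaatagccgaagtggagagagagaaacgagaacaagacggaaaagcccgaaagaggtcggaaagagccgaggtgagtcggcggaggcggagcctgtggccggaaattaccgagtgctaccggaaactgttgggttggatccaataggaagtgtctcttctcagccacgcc
Myl1: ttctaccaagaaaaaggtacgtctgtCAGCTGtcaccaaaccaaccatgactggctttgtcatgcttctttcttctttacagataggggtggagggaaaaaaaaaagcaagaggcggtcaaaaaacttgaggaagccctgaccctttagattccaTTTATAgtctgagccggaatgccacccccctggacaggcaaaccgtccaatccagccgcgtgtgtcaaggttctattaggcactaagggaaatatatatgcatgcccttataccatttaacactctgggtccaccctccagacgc
Mylpf: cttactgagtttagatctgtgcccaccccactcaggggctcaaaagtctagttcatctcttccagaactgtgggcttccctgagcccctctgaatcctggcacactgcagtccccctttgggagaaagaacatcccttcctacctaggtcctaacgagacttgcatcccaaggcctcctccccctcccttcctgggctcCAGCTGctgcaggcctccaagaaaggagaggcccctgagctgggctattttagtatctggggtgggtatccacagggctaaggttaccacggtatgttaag

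The Myl4 window lies at chr11:104550413-104550712 on the plus strand, the Myl1 window at chr1:66945007-66945306 on the minus strand and the Mylpf window at chr7:127211358-127211657 on the plus strand. The gene table places these genes at chr11:104546017-104587215, chr1:66924295-66947932 and chr7:127208848-127214288. Each window therefore lies inside its gene, and the outermost upstream end of these genes was not searched. The E-box CAGCTG, the related E-box written CAGGTG, the general form CANNTG that covers both of these, the TATA box as TATAAA, and the MEF2 and CArG motifs by name were searched on both strands. CAGCTG was found 1 time in the Myl1 window, starting at position -224 from the start site, and 1 time in the Mylpf window, at -51. It was found in 16.3% of all 32851 windows. TATAAA was found in the Myl1 window, on the opposite strand at -95, and in 13.6% of all windows. The Myl4 window held none of the 6 motifs, CANNTG included, which 72.3% of all windows hold. The Myl3 window held CAGGTG and a CArG motif, the box that serum response factor binds, and both Myl2 windows held CAGCTG. G and C made up 61.7% of the Myl4 window, 47.3% of the Myl1 window and 55.3% of the Mylpf window, with a median of 52.7% over all windows. These matches describe letters in 1 short window per start site searched, and say nothing about other start sites or about binding.

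Among the heavy chains that these light chains join, the adult fast Myh1 read 1908 in shLrrfip1a and 765 in control (log2 difference 1.30), and 1517 against 678 on another probe set (1.14). The remaining probe set was dim and read 18.1 against 25.0 (-0.26), and the brightest one can cross-hybridise with related myosins. The embryonic heavy chain Myh3 read 1294 against 1256 (0.04) and the slow Myh7 126 against 127 (-0.01), both near enough to 0 to change sign with the scaling. Of 8 sarcomeric heavy chain genes 3 passed the filter and 1, Myh1, was past 2-fold, against 1.36% of all genes either way. The difference of the fast light chain Myl1 minus that of Myh1 was -1.32 (-1.37 to -1.27 over the settings), and that of the embryonic light chain Myl4 minus that of the embryonic heavy chain Myh3 was -0.74 (-0.76 to -0.72). In neither of these chosen pairs did the light chain and the heavy chain differ by like amounts on these arrays. The slow light chain Myl3 (0.07) and the slow heavy chain Myh7 (-0.01) were both close to level.

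The list of light chain kinases and phosphatase holds kinases that act on regulatory chains, and the catalytic and targeting subunits of myosin phosphatase. All 6 genes above the filter, of 8 listed, read higher in shLrrfip1a as deposited, where 49.3% of all genes above the filter read lower. After median, quantile or lowess scaling 5 of 6 read higher, and Ppp1r12c (0.03 as deposited) turned negative. Their median was 0.25. None reached 2-fold, a size reached by only 1.36% of all genes either way. Mylk, the kinase best known from smooth muscle and nonmuscle cells, was past 1.5-fold on its brightest probe set, at 261 against 157 (0.68). A dimmer Mylk probe set that also passed the filter read 126 against 81.5 (0.54). Mylk2, the skeletal muscle kinase, read 89.9 against 56.4 (0.55). The dimmer Mylk probe set and Mylk2 fell short of 1.5-fold only because the pseudocount was added. Their deposited intensities were past that size. Ppp1r12a, the targeting subunit of myosin phosphatase, read 605 against 503 on its brightest probe set (0.26), and its 4 probe sets lay between 0.26 and 0.32. Mylk3 and Mylk4 were below the filter, at 27.7 against 14.3 and 37.9 against 62.8.

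Light chains of nonmuscle and smooth muscle myosin differed little. Of 5 genes 4 passed the filter, and their median was 0.02, or -0.03 with the mean over probe sets. None was past 1.5-fold, a size reached by only 2.34% (higher) and 2.47% (lower) of all genes. Myl9, a regulatory chain of smooth muscle and nonmuscle myosin, was the most different at 1249 against 1000 (0.32), while Myl12a read 6013 against 5712 (0.07), with 351 against 386 (-0.13) on its other probe set, and Myl12b 1101 against 1130 (-0.04). The atrial regulatory chain Myl7 was dim, at 21.8 against 30.1, as was Myl10, at 36.2 against 37.2. Myl4 is also an atrial gene. Of 5 cardiomyocyte markers 4 lay below the filter on these arrays, and Nppa, the natriuretic peptide gene of the atrium, was close to it at 64.7 and 62.4 (0.04). Their part in the Myl4 difference was not tested.

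Troponins, the calcium switch of the thin filament, were mostly lower in shLrrfip1a. Of 7 genes, all above the filter, 6 had a negative difference (5 with spike-in scaling, where Tnnt3 turned positive), against 49.3% of all genes. The median was -0.31. None reached 2-fold, a size reached by only 1.36% of all genes either way. As deposited, 2 were at least 1.5-fold lower, against 2.47% of all genes. Those 2 were Tnni2, the fast inhibitory subunit (652 against 1081, -0.72), and Tnnt2, the cardiac and embryonic troponin T (1352 against 2115, -0.64). With spike-in scaling, which moved both up by 0.16, neither was past 1.5-fold. The Myl4 difference minus the Tnnt2 difference was -0.05 (-0.08 to -0.05 over the settings), although the 3 Tnnt2 probe sets ran from -0.87 to 0.13. The other fast subunits were Tnnt3 (691 against 737, -0.09) and Tnnc2 (2056 against 1801, 0.19). The slow subunits Tnnc1 (-0.17), Tnni1 (-0.31) and Tnnt1 (-0.36) lay between these and Tnni2.

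Of 3 myosin assembly genes, all above the filter, none was past 1.5-fold, against 2.34% (higher) and 2.47% (lower) of all genes. The myosin chaperone Unc45b differed by -0.32 and its partner Hsp90aa1 by 0.14. The methyltransferase Smyd1 differed by 0.06 on its brightest probe set, with 0.25 to 0.33 on its 4 others above the filter. The median of the 3 was 0.06, and 0.12 with the mean over probe sets. Of 4 myosin binding protein genes 2 passed the filter, with Mybph at 1861 against 2424 (-0.38) and Mybpc1 at 73.0 against 55.7 (0.31). Of 7 myogenic factors 5 passed the filter, with none past 2-fold, against 1.36% of all genes either way, and a median of -0.19. That median was -0.03 with spike-in scaling, -0.09 with the mean over probe sets and -0.11 with the 75th percentile filter. Myog, the factor of terminal differentiation, read 2005 against 2612 (-0.38), Myf5, an early determination factor, 82.8 against 159 (-0.83), and Myod1 894 against 602 (0.56). The Myl4 difference minus the Myog difference was -0.31.

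**Figure D4:**
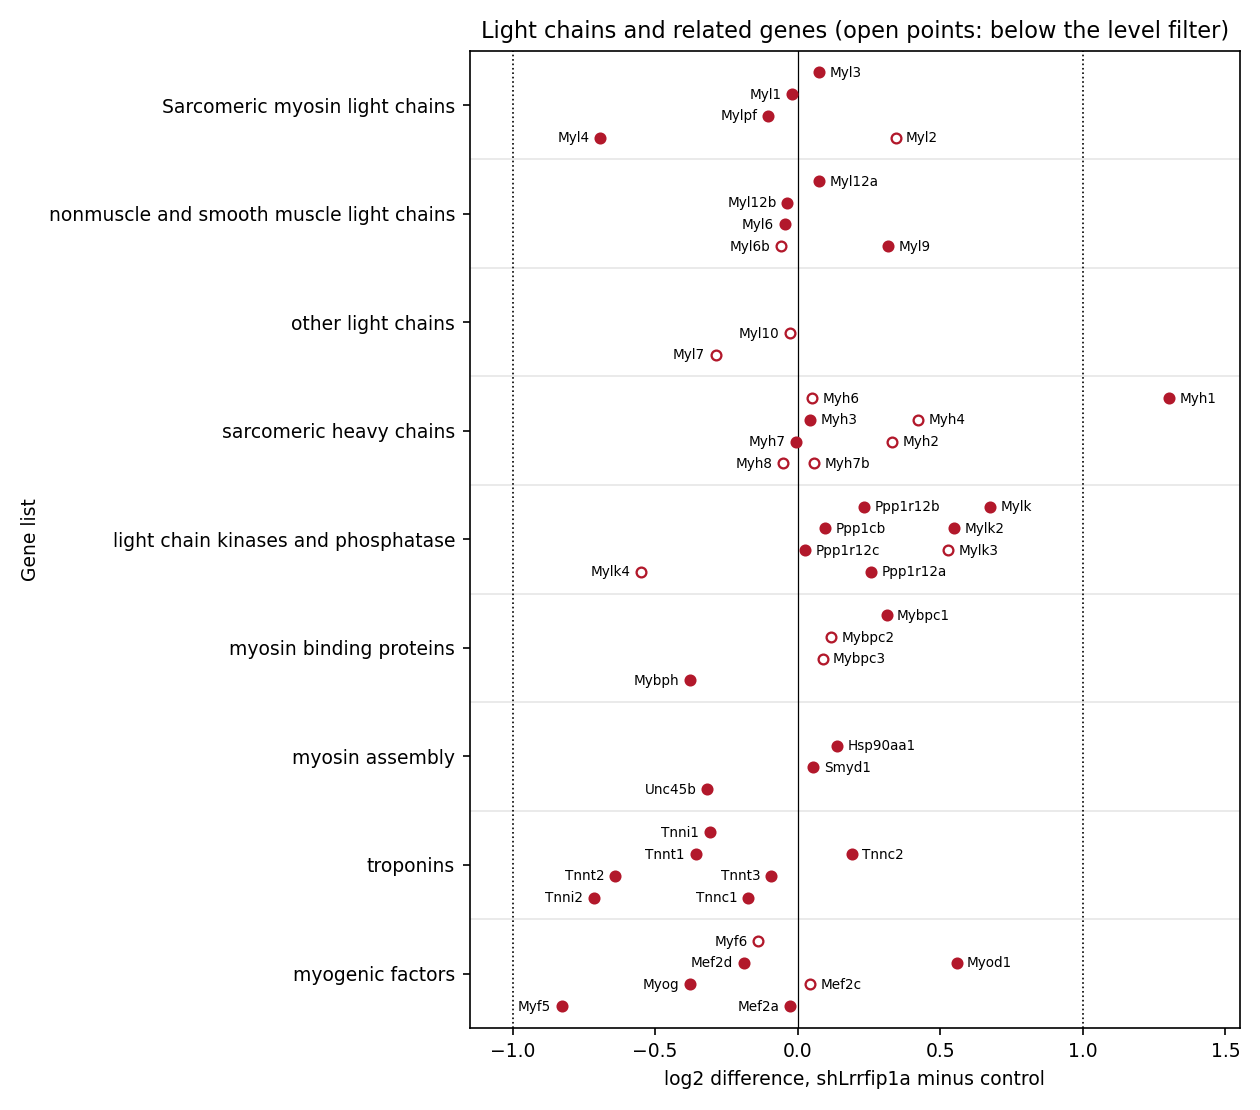
Log2 difference, shLrrfip1a minus control, of every gene of the light chain list and the 8 related lists, by its brightest probe set; open points are below the level filter and dotted lines mark 2-fold. Myl4, Tnni2, Tnnt2 and Myf5 lie on the low side, Myh1 alone lies past 2-fold, and the kinase and phosphatase genes above the filter are all positive as deposited, Ppp1r12c by 0.03.

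Markers of other cells and states are given beside these differences. Of 6 fibroblast markers 5 passed the filter, with summed intensities of 20059 in shLrrfip1a and 17261 in control and a median difference of -0.03. Such sums weight genes by the brightness of their probes, and without Dcn the fibroblast sums were 16562 in shLrrfip1a and 17001 in control. Decorin (Dcn) read 3497 against 260 (3.67), and the others ran from Col1a1 at -0.42 to Col3a1 at 0.05. The 4 measured markers of proliferating cells, with Ccnb1 not analysed here, summed to 5067 in shLrrfip1a and 5079 in control. Of these Mki67 (-0.23), Top2a (-0.32) and Cdk1 (-0.17) were lower and Pcna (0.29) higher, with a median of -0.20. The 4 smooth muscle markers summed to 10121 in shLrrfip1a and 9085 in control, a sum carried by the bright Acta2 (0.26), while Tagln (-0.18), Myh11 (-0.16) and Cnn1 (-0.14) were lower as deposited and the median was -0.15, and Cnn1 turned positive with scaling to all spike-in controls. Both measured adipocyte markers, Adipoq and Fabp4, were below the filter. The part of these in the Myl4 difference was not tested. In such bulk RNA, fewer cells of a type and less RNA per cell cannot be told apart.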

How the data were processed

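The authors deposited 1 intensity per probe set for each of 2 Affymetrix arrays, on a linear scale with a floor of 1. How they were summarised, corrected for background and scaled is not given in the sources used here, so the centring of the values is unknown, and the number of arrays limits the precision. Per the labels' protocols, biotin-labelled cRNA was made from 6 ug of Trizol-extracted total RNA.

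From the deposited intensities, log2(intensity + 16) was taken, and each difference is shLrrfip1a minus control, which understates changes of dim genes. Genes were named through the platform annotation. Of 34945 non-control probe sets with 1 symbol, 34741 matched the mouse gene table of GRCm38.p6 by identifier. Groups came from the labels, and with 1 array each no test was run. The naming rule covered every light chain probe set and every listed gene with a probe set; Ccnb1 and Plin1 had none here. The members, lists and thresholds were chosen with earlier results of these data known. Alternatives were 4 scalings and 2 more added after the data were seen, 2 pseudocounts, the mean over probe sets, 2 level filters and a 1.5-fold size. Promoter windows came from RefSeq. Python 3.11.15, numpy 2.4.6, pandas 2.3.3 and statsmodels 0.14.6 were used. The procedure was tested on simulated data. Those had planted differences larger than that of Myl4 and noise smaller than the spread seen here, so the test does not cover differences of the sizes reported.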

Additional observations from a re-analysis of the deposited data

How the results depend on the processing

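Leaving out an array was not possible with 1 for each group, and the spread between cultures was not measured. No paired analysis was possible because there was 1 array of each kind. A value was taken as unmoved when it shifted by less than 0.23, the robust SD of the difference over all genes above the filter, and a count when it stayed within 1.5 times. On that scale the difference of each light chain gene and their median (-0.11 to 0.13) stayed in place under every alternative that gave a value. For the constant shifts, all smaller than 0.23, this was fixed in advance. The level filters and the 1.5-fold size do not alter the difference of a gene. The scale also ignores sign, which changed for Myl1 and Mylpf with spike-in scaling. The count of light chain genes with a negative difference was 3, and 1 with spike-in scaling or with the B. subtilis controls alone, by the uniform shift, and 2 with the E. coli and P1 controls. At 1.5-fold in place of 2-fold, 1 light chain gene, 1 kinase, 1 myogenic factor and 2 troponins passed as deposited instead of 0. All were lower except the kinase. With spike-in scaling Myl4 and both troponins fell short of 1.5-fold. The kinase count depends on the pseudocount, since the deposited intensities of Mylk2 were also past 1.5-fold. The 75th percentile filter left fewer genes, and the medians came to -0.38 for myosin binding proteins (against -0.03) and 0.67 for heavy chains (against 0.04). The 2-fold counts over the whole array were 76 higher and 79 lower; these were 116 and 53 with spike-in scaling, 131 and 50 with the B. subtilis controls, 90 and 70 with the E. coli and P1 controls, 48 and 46 with the stricter filter, and 44 lower with a pseudocount of 64. The 4 of 8 light chain probe sets below the filter, the single Myl2 probe set among them, were too dim to give a size that does not depend on the pseudocount.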
